A study of Mus musculus with 31 samples.

Results

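Sites of meiotic DNA double-strand breaks were compared between the testis of the F1 cross C3HfX13Rm, whose mother was C3H (strain C3H/HeJ) and whose father was 13R (strain B10.F-H2pb1/(13R)J), and the testis of its 2 parental strains. The members were all hotspots of the cross on the 19 autosomes: 14979 of the 392225 autosomal hotspots in the 26 lists of the series, or 15936 of 414683 with X and Y. The inbred 13R list held 13850 autosomal hotspots and the inbred C3H list 13742. A hybrid hotspot was assigned to a parent when its centre lay less than 400 bp from the centre of a hotspot in that parent's list, a rule that used positions only. With 1 library for each genotype, replicate error could not be measured, and the 95% intervals given with shares (exact Clopper-Pearson) cover counting error only. The labels name no mutant or transgenic allele in these 3 genotypes. The sources used here state neither the age of the mice nor how many animals a library came from, and the lists hold no expression values with which the tissue could be checked.

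Meiotic breaks are made by SPO11, and in mice most of them are placed by PRDM9, a histone methyltransferase whose zinc-finger array binds DNA and differs between strains. The recombinase DMC1 coats the single-stranded ends of a break, and the assay used here, DMC1 SSDS, recovers and sequences that single-stranded DNA, so a hotspot is a place where many cells had DMC1-bound ends. 13R belongs to the B10 family of strains, which are congenic for H2 segments of chromosome 17, the chromosome that also carries Prdm9. An F1 animal has both parental alleles of Prdm9, and an allele is called dominant when its hotspots prevail over those of the other. The strength of a hotspot is the authors' score for it, and it was used only within a list, as a rank, a percentile or a share of the summed strength.

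To show what stood at a hotspot centre, promoter windows (250 bases before to 50 after a gene start, RefSeq build GRCm38.p6, whose chromosomes are those of mm10) that held the centre of a hybrid hotspot are printed for 3 genes. Windows of genes whose symbol is Gm and a number were left out, and the strongest of the others are shown, 2 at hotspots of 13R and 1 at a hotspot of C3H, and capitals mark the 21 bases around the hybrid centre. Sptbn1 encodes a spectrin beta chain, Serpina11 a member of the serpin family, and 4930597O21Rik has only a clone name.
Sptbn1, chr11:30219723-30220022, minus strand: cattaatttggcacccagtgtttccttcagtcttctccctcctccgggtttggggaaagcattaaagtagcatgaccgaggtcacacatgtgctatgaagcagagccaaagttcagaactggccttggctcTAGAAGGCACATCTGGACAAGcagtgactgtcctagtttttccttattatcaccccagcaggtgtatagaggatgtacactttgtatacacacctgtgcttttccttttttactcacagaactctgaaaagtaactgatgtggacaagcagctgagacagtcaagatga
Serpina11, chr12:103989908-103990207, minus strand: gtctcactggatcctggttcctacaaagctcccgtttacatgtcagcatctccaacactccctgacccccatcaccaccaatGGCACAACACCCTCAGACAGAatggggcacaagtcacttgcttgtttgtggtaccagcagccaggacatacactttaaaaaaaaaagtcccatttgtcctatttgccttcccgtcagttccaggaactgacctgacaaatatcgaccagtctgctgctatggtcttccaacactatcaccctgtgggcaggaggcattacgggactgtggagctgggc
4930597O21Rik, chr6:66924127-66924426, minus strand: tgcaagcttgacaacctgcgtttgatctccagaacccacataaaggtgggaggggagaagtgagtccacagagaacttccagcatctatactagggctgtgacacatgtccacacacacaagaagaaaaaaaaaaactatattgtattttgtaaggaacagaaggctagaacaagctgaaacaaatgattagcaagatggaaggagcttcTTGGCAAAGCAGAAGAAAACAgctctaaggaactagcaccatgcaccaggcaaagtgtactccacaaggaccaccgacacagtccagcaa
The Sptbn1 hotspot (chr11:30218098-30221665) ranked 742 of the 14979 in the hybrid and 984 in 13R, with no C3H hotspot within 400 bp. The Serpina11 hotspot (chr12:103988814-103991417) ranked 2262 in the hybrid and 1978 in 13R. The hotspot at 4930597O21Rik (chr6:66922859-66925554) ranked 1985 in the hybrid and 621 in C3H. Such cases were rare: centres fell in 24 promoter windows for the 10496 hybrid hotspots at 13R alone and in 5 for the 3466 at C3H alone. The 899 at neither parent gave 2 windows. The 29991 hotspots of the Prdm9 knockout, the genotype without PRDM9, gave 3062. A centre in overlapping windows counts in each. The GC content of those windows had a median of 45.0% for 13R, 44.7% for C3H, 54.8% for neither and 64.0% for the knockout. Over all 31396 autosomal windows it was 53.0%, and the medians for C3H and neither rest on 5 and 2 windows.

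The labels of the cross fitted its hotspots. Of the hybrid's hotspots, 70.9% (70.1 to 71.6) lay at a hotspot of inbred 13R and 23.9% (23.2 to 24.6) at one of inbred C3H. The B6 list (C57Bl/6J) held 10.4%, and 37.4% of the hybrid hotspots found at C3H alone were also B6 hotspots, as were 33.3% of the whole C3H list. Inbred MOL, PWD and CAST held 0.821%, 0.661% and 0.587%. The parental lists themselves had almost nothing in common: 103 hotspots, or 0.744% of the 13R list and 0.750% of the C3H list, lay at the same place.

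Hotspots of 13R made up most of the hybrid's break map. Of the hybrid hotspots, 10496 (70.1%, 69.3 to 70.8) lay at a 13R hotspot only, 3466 (23.1%, 22.5 to 23.8) at a C3H hotspot only, 118 (0.788%) at both, and 899 (6.00%, 5.63 to 6.39) at neither. By summed strength the 13R-only class held 79.3%, the C3H-only class 14.8%, the class at both 1.19% and the class at neither 4.78%. Of the hotspots with a single parent, 75.2% (74.5 to 75.9) were thus 13R by number and 84.3% by strength, although the 13R list supplied only 50.2% (49.6 to 50.8) of the parental hotspots. The ratio of 13R-only to C3H-only was 3.03 by number and 5.36 by strength.

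The 13R excess was steepest among the strongest hotspots. In decile 1 of the hybrid list, its strongest 10%, 87.0% were 13R only, 7.21% C3H only and 4.48% at neither. In decile 10, the weakest, 56.9% were 13R only, 30.8% C3H only and 11.9% at neither. Of the strongest 1000 hybrid hotspots, 878 were 13R only, 57 C3H only, 13 at both and 52 at neither. The median percentile in the hybrid was 55.5 for 13R-only hotspots, 37.6 for C3H-only hotspots, 66.9 for those at both and 36.2 for those at neither. The median widths were 2150 bp for 13R only, 1704 bp for C3H only, 2439 bp for both and 1744 bp for neither.

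**Figure D1:**
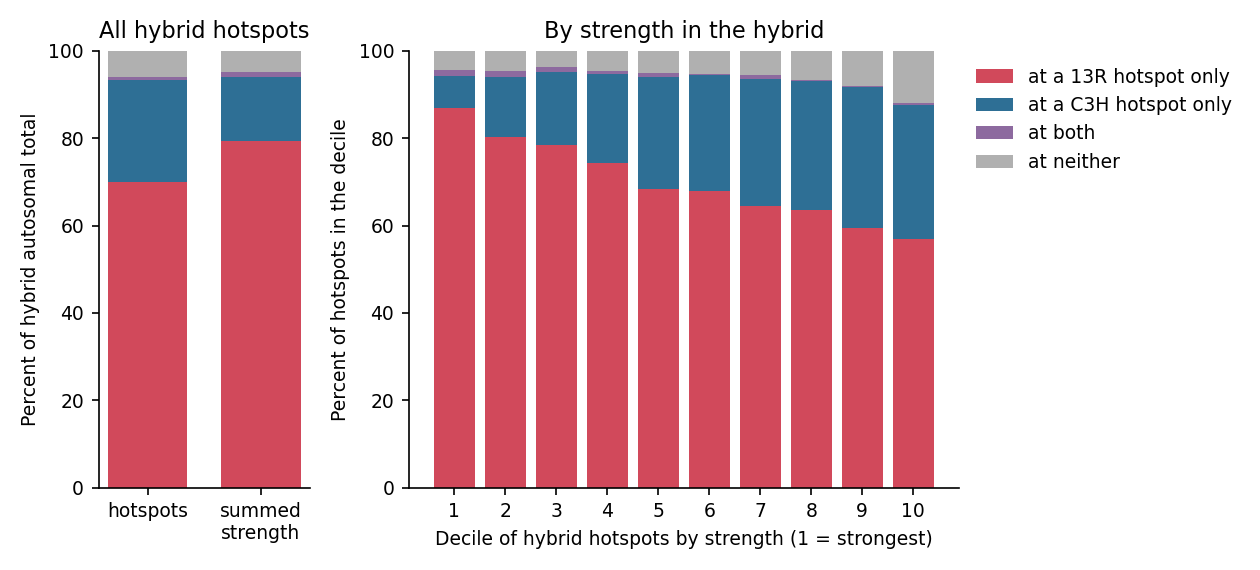
Share of C3HfX13Rm autosomal hotspots (y axis, percent) by parental origin, over all hotspots and summed strength (left) and by decile of the hybrid list from strongest to weakest (right), 1 library. The 13R-only share is 87.0% in decile 1 and 56.9% in decile 10.

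Nearly all strong 13R hotspots were found again in the hybrid, and the recovery of C3H hotspots was high only in the strongest deciles of their list. The hybrid held 10614 of 13850 13R hotspots (76.6%, 75.9 to 77.3) and 3584 of 13742 C3H hotspots (26.1%, 25.3 to 26.8). By deciles of the 13R list, from strongest to weakest, 99.1%, 99.1%, 99.2%, 98.8%, 97.6%, 89.0%, 73.4%, 54.4%, 35.5% and 20.1% were recovered. By deciles of the C3H list the shares were 94.0%, 74.5%, 43.7%, 23.8%, 10.6%, 4.44%, 3.28%, 2.47%, 2.04% and 1.96%. The 13R series therefore stayed above 97% through decile 5, and the C3H series dropped already in decile 2. In a sliding window of 500 hotspots, recovery fell below 50% at rank 11041 of the 13R list (79.7% of its length) and at rank 3362 of the C3H list (24.5%).

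**Figure D2:**
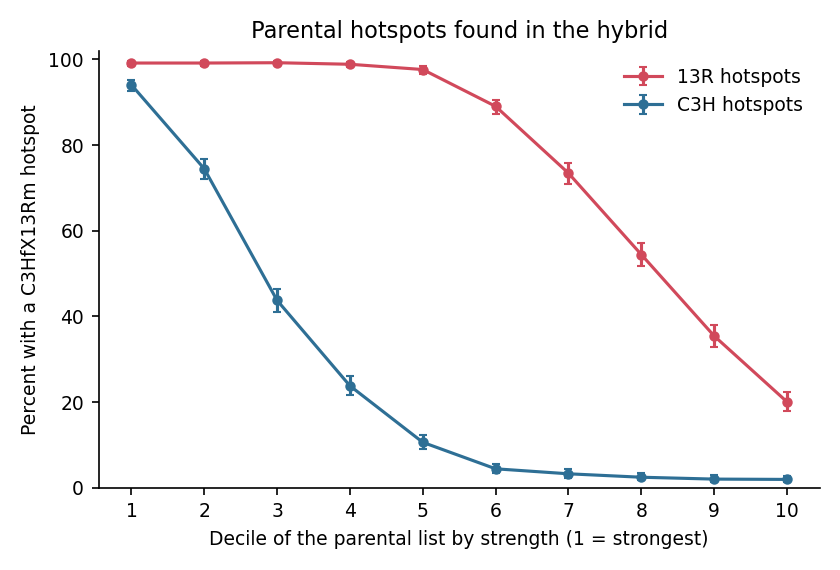
Share of 13R and C3H autosomal hotspots with a C3HfX13Rm hotspot (y axis, percent) by decile of the parental list from strongest to weakest, with exact 95% intervals for counting error, 1 library per genotype. Recovery of 13R is 99.1% in decile 1 and 20.1% in decile 10, and recovery of C3H is 94.0% and 1.96%.

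Recovery of a C3H hotspot was also set against its surroundings and its history. In deciles 2 to 4 of the C3H list, 44.6% (40.4 to 48.9) of hotspots with the nearest 13R hotspot 400 to 10000 bp away were recovered, 44.2% (41.7 to 46.9) of those 10000 to 50000 bp away, 47.9% (45.5 to 50.3) of those 50000 to 200000 bp away and 56.0% (51.01 to 60.8) of those farther off. The last interval did not overlap the first 3, and those 3 overlapped each other. Over the whole C3H list the same 4 shares were 25%, 25.1%, 26.0% and 26.0%, with overlapping intervals. C3H hotspots that are also B6 hotspots were recovered in 29.3% (28.0 to 30.7) of 4575 cases and the others in 24.5% (23.6 to 25.4) of 9167. Within each of the 10 deciles of C3H strength the intervals of these groups overlapped, for example with 74.6% (70.5 to 78.3) and 74.4% (71.4 to 77.3) in decile 2.

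Hotspots kept from 13R held their order of strength, while those kept from C3H moved far down. A percentile is the place of a hotspot in its own list, with 100 the strongest, and a change of at least 25 points was counted as a rise or a fall. Among 10512 13R hotspots that matched 1 hybrid hotspot and no C3H hotspot, the median percentile was 55.5 in the hybrid, against 61.4 in 13R, and the median change was -4.58 points (-4.89 to -4.31). With the hybrid list alone cut to its strongest 9748 hotspots, the length of the B6fX13Rm list, from a B6 mother and a 13R father, it was -16.9 points. In the uncut hybrid list, 932 (8.87%) of the 10512 fell and 189 (1.8%) rose. Among 3482 such C3H hotspots the median percentile was 37.8 in the hybrid, against 86.0 in C3H, and the median change was -43.2 points (-44.0 to -42.0). Of these, 2666 (76.6%) fell and 40 (1.15%) rose. Spearman's rho between the strengths in the hybrid and in the parent was 0.89 across the 10512 13R hotspots and 0.57 across the 3482 C3H hotspots, a description across places in the same libraries that are not independent. Centres differed by a median of 41 bp for 13R and 70 bp for C3H.

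**Figure D3:**
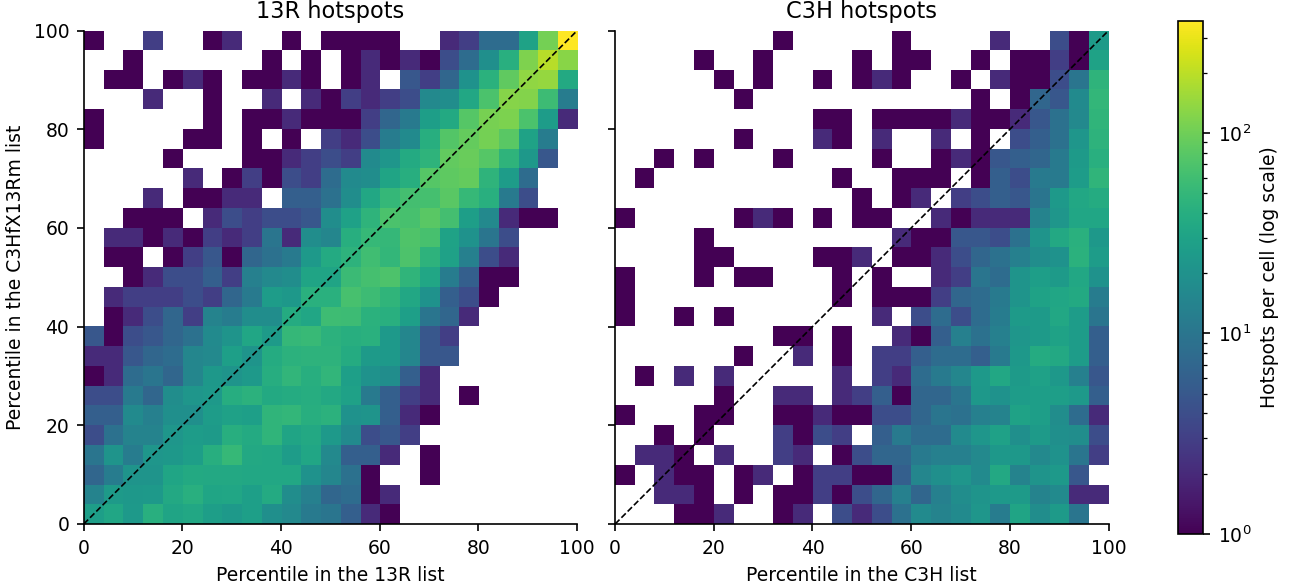
Percentile in the C3HfX13Rm list (y axis) against percentile in the parental list (x axis) for 10512 13R and 3482 C3H autosomal hotspots matched to a single parent, with colour for the number of hotspots per cell on a log scale and a dashed line where both are equal. The 13R hotspots lie along the line with 31.3% of them above it, and 3.56% of the C3H hotspots lie above it.

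The contrast held within the strongest part of each list. Of the strongest 1000 hotspots of each parent, 990 of 13R and 954 of C3H were recovered, with median percentiles in the hybrid of 95.7 and 66.2. Decile 1 of C3H had a median hybrid percentile of 60.4 and a median change of -34.2 points, and decile 2 had 33.7 and -51.9 points. Decile 1 of 13R had a median hybrid percentile of 94.3 and a median change of -1.02 points. Further down the 13R list the median change reached -12.2 points, in decile 6.

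Single hotspots are named as examples. Those taken from the top of the hybrid list were chosen for their strength there, so their high hybrid ranks were fixed by the choice. The strongest hybrid hotspot (chr1:30771500-30775995), 28595 bp from the nearest end of Phf3, a gene for a PHD finger protein, ranked 1 in the hybrid and 4 in 13R. The next (chr8:8219113-8224320), whose nearest gene is the ephrin gene Efnb2, ranked 2 and 8. A hotspot in Adgrl3, a gene for an adhesion receptor (chr5:81497277-81502232), ranked 4 in the hybrid and 16 in 13R. Stau2, which encodes a double-stranded RNA-binding protein, held a hotspot that ranked 11 in the hybrid and 3 in 13R. A hotspot in Ubqln1, a ubiquilin gene, ranked 209 in the hybrid and 2 in 13R. Both stayed near the top of the hybrid list. Others chosen in the same ways differed: those in Cntn4 and M1ap ranked 3 and 5 in the hybrid but 500 and 250 in 13R. Hotspots in Sycp3, at ranks 1 and 5 in 13R, had no hybrid match.

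The 5 strongest hotspots of C3H were all recovered but ranked lower. Epc1, a gene for a subunit of a histone acetyltransferase complex, held the first C3H hotspot, which ranked 439 in the hybrid. The hotspot in Phc3, a Polycomb gene, ranked 38 in the hybrid (chr3:30944634-30948961) and 2 in C3H, which made it the strongest hybrid hotspot at C3H alone. Hotspots in Ttc39b and in Micu3, a gene for a regulator of the mitochondrial calcium uniporter, ranked 402 and 1604 in the hybrid, against 3 and 4 in C3H. The hotspot nearest to Vps13a ranked 166 in the hybrid and 5 in C3H. Others among the 5 strongest hybrid hotspots at C3H alone ranked higher in the hybrid than in C3H. The one nearest to Zbtb40 (chr4:137085117-137088888) ranked 129 in the hybrid and 3217 in C3H. The one nearest to Erbb4, a receptor tyrosine kinase gene, ranked 131 and 1622, and the one in Grm7 ranked 119 and 389. A hotspot in 4932438A13Rik ranked 153 in the hybrid and 83 in C3H. The hotspots at Zbtb40, Erbb4, 4932438A13Rik and Phc3 were also hotspots of inbred B6 and had a match in both crosses of 13R with B6. The one in Grm7 was no B6 hotspot and had no match in another 13R cross. Of all C3H-only hybrid hotspots, 37.4% were B6 hotspots.

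Falls were of another size for the 2 parents. Within the strongest 1000 of 13R, the 3 largest falls were changes of -20.7 points in Psma3 and -19.2 points in Psmc2, both genes of proteasome subunits, and -19.7 points in Ptcd2. Within the strongest 1000 of C3H, they were changes of -92.8 points near Fam155a, -92.6 points near Snrpd1, a gene for a core splicing protein, and -91.5 points in Mtmr7. The hotspot near Fam155a (chr8:9858902-9862265 in the C3H list) ranked 14909 of 14979 in the hybrid and 919 in C3H.

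Some strong parental hotspots had no hybrid hotspot within 400 bp. The first hotspot of 13R lay at the end of Sycp3, whose protein builds the axes of meiotic chromosomes (chr10:88471976-88473781), and 3 more 13R hotspots inside the gene ranked 5, 6 and 22. None of the 4 had a match in C3HfX13Rm, and 13RfXB6m and B6fX13Rm, the crosses of 13R with B6 in either direction, had no hotspot centre in Sycp3 either. Hotspot centres lay in Sycp3 in 15 of the 26 lists, and outside 13R the best rank among them ran between 419, in MOL, and 15595, in PWDfXC3Hm. Inbred B6, MOL and PWD had 4 each. The Prdm9 knockout had 3, the best at rank 12465. Of the other 13R crosses, MOLfX13Rm had 2, the best at rank 7785, and PWDfX13Rm had none. Of the strongest 5000 hotspots of 13R, 47 (0.94%, 0.691 to 1.25) were missing from the hybrid, of which 35 overlapped a hybrid hotspot whose centre was farther away and 12 were also missing from both crosses with B6. The 3 strongest C3H hotspots without a match were in Igf2r, the receptor gene for insulin-like growth factor 2, which ranked 60 in C3H, near Ncoa1, a nuclear receptor coactivator gene, at rank 128, and in Prdm9 itself at rank 132. The first 2 overlapped a hybrid hotspot with another centre, and the hotspot in Prdm9 (chr17:15562515-15564226) overlapped none. Hotspot centres lay in Prdm9 in 7 of the 26 lists, among them PWD at rank 31 and the knockout at rank 8232. Of the other C3H crosses, B6fXC3Hm and C3HfXCASTm had one, and C3HfXB6m, C3HfXMOLm and PWDfXC3Hm had none.

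Hotspots at both parents were few and strong. The strongest, in the histone demethylase gene Kdm3a (chr6:71601441-71606286), ranked 15 in the hybrid, 5548 in 13R and 396 in C3H. A hotspot in Dixdc1 ranked 62 in the hybrid, 85 in 13R and 3085 in C3H, and one in Herc2, a large ubiquitin ligase gene, ranked 86, 1687 and 221. A hotspot in Vps13b ranked 87 in the hybrid, 128 in 13R and 8547 in C3H. The hotspot with Bcl11a, a transcription factor gene, as its nearest gene ranked 89 in the hybrid, 474 in 13R and 349 in C3H. Each of the 5, which were chosen for their strength in the hybrid, ranked higher there than in either parent.

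The 899 hybrid hotspots at neither parent were searched for in the other crosses. A hotspot at the same place was found in at least 1 of the 4 other crosses with a 13R parent for 375 of them (41.7%, 38.5 to 45.0) and in at least 1 of the 5 other crosses with a C3H parent for 240 (26.7%, 23.8 to 29.7). Under reciprocal overlap of 50% this order turned round, to 19.2% for 13R crosses and 77.9% for C3H crosses. Over all 14979 hybrid hotspots the shares were 70.2% and 26.7%, and crosses with neither parent held 108 (12.0%) of the 899, against 9.25% of all. Crosses of only the first kind held 297 (33.0%), crosses of only the second kind 162 (18.02%), both kinds 78 (8.68%) and neither kind 362 (40.3%, 37.0 to 43.6). By strength, hotspots found in another 13R cross carried 2.78% of the hybrid total and those found in another C3H cross 1.10%. Of the 52 at neither parent among the strongest 1000 of the hybrid, 39 were found in another 13R cross, 7 in another C3H cross, 3 of them in both kinds, and 9 in no cross of either kind. Those found in no such cross were weak, with a median percentile of 22.6.

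Crosses of 13R with PWD and MOL held more of them than crosses of 13R with B6. PWDfX13Rm held 23.2% and MOLfX13Rm 22.4%, against 16.6% in 13RfXB6m and 10.1% in B6fX13Rm. Of the 13R-only hotspots, the same crosses held 72.4%, 72.5%, 89.4% and 75.3%. Among the 5 C3H crosses, those with B6 held the most, with 21.9% in C3HfXB6m and 21.4% in B6fXC3Hm. C3HfXMOLm held 18.8%, PWDfXC3Hm 17.9% and C3HfXCASTm 11.6%. List length differed, with 12945 autosomal hotspots in PWDfX13Rm, 15606 in MOLfX13Rm, 12448 in 13RfXB6m and 9748 in B6fX13Rm, and its part in these shares was not tested. By comparison, 861 (8.20%) of the 13R-only hotspots and 13 (0.375%) of the C3H-only hotspots were in no other cross with 13R or C3H.

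**Figure D4:**
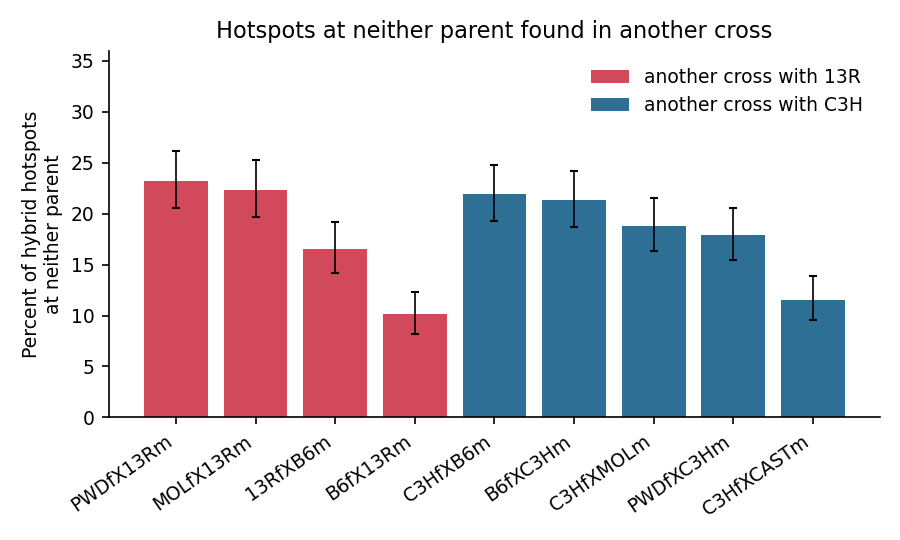
Share of the 899 C3HfX13Rm hotspots at neither parent that had a hotspot within 400 bp in each other cross with a 13R or a C3H parent (y axis, percent), with exact 95% intervals for counting error, 1 library per cross. The shares run from 10.1% in B6fX13Rm to 23.2% in PWDfX13Rm.

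Part of the class lay close to a parental hotspot. Of the 899, 198 (22.0%, 19.4 to 24.9) overlapped the interval of a hotspot of 13R, C3H or both, and 701 overlapped none. Among those 701, 33.7% (30.2 to 37.3) were found in another 13R cross and no other C3H cross, 13.6% (11.1 to 16.3) in another C3H cross and no other 13R cross, and 44.1% (40.4 to 47.8) in none. At the match limit itself, 86 hybrid hotspots lay 300 to 400 bp from the nearest 13R centre and 43 lay 400 to 500 bp away, and for C3H the counts were 91 and 51.

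The strongest of this class differed in where else they appeared. The first (chr6:107872152-107876051), 190944 bp from the end of Setmar, ranked 20 in the hybrid and was found in PWDfX13Rm alone. A hotspot in the lipid kinase gene Pip5k1b (chr19:24309603-24313186) ranked 85 and was found in MOLfX13Rm and PWDfX13Rm. The hotspot in Met, the receptor gene for hepatocyte growth factor (chr6:17526435-17530314), ranked 100 in the hybrid and was found in all 5 other C3H crosses, at rank 3 both in B6fXC3Hm and in C3HfXB6m, as well as in inbred MOL, MOLfXB6m and PWDfXMOLm. The hotspot nearest to Exoc5, an exocyst gene, ranked 201 and was found in PWDfX13Rm alone, and the one in Ankfn1 ranked 213, was found in no other list and overlapped a 13R hotspot.

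Dominance of 13R was set beside that in the crosses of 13R with B6. These comparisons share the 13R list. The 13R share of single-parent hotspots was 75.2% in C3HfX13Rm, 79.9% (79.2 to 80.7) in 13RfXB6m and 83.9% (83.1 to 84.6) in B6fX13Rm. The lists differ in length, and with each cut to its strongest 9748 hotspots the shares were 79.8% (79.0 to 80.6), 83.6% (82.9 to 84.4) and 83.9% (83.1 to 84.6). The share with C3H was thus the lowest of the 3 also at equal length, with an interval apart from the other 2. It was not the lowest of all 13R crosses: at the same length MOLfX13Rm had 64.0% (62.9 to 65.0) and PWDfX13Rm 78.9% (78.0 to 79.8). On the side of the other parent, decile 1 of C3H was recovered to 94.0% in C3HfX13Rm, while decile 1 of B6 was recovered to 80.4% in 13RfXB6m and 63.2% in B6fX13Rm. In decile 2 the shares were 74.5%, 38.1% and 17.9%. A decile of B6 holds more hotspots than one of C3H, and of the strongest 1000 hotspots 95.4% were recovered for C3H, against 90.0% and 78.7% for B6 in the same crosses. All these recoveries used the uncut lists of the crosses, with 14979, 12448 and 9748 hotspots. They fell in the order of list length, whose part in them was not tested.

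The strongest 1000 hotspots of 13R were recovered alike in all 3 crosses, with 990 in C3HfX13Rm, 993 in 13RfXB6m and 992 in B6fX13Rm. Falls of at least 25 points among single-parent 13R hotspots numbered 932 of 10512 in C3HfX13Rm, 1045 of 9665 (10.8%) in 13RfXB6m and 2092 of 7943 (26.3%) in B6fX13Rm. Rises numbered 189 in C3HfX13Rm, 27 (0.279%) in 13RfXB6m and 13 (0.164%) in B6fX13Rm. A percentile depends on the length of its list, and with each cross cut to its strongest 9748 hotspots the order of the falls turned round, to 2541 of 7349 (34.6%) in C3HfX13Rm, 2141 of 7955 (26.9%) in 13RfXB6m and 2092 of 7943 (26.3%) in B6fX13Rm. Rises then numbered 65 (0.884%), 9 (0.113%) and 13. Across the 13R-only hotspots of C3HfX13Rm found in each cross, Spearman's rho of the strengths was 0.94 with 13RfXB6m (n = 9386) and 0.92 with B6fX13Rm (n = 7904), again a description across places, all of which were chosen for a 13R hotspot. For the C3H-only hotspots and the other C3H crosses it ran between 0.42 (C3HfXCASTm, n = 1909) and 0.69 (B6fXC3Hm, n = 3398).

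Chromosome 6 stood apart from the other autosomes in the hybrid. It held 9.16% of the hybrid's autosomal strength, against 5.95% in 13R and 5.74% in C3H, which is 1.57 times the mean of both parents. For the other 18 autosomes this ratio lay between 0.848 (chromosome 10) and 1.07 (chromosome 14). By number, chromosome 6 had 1066 hotspots (7.12%) in the hybrid, against 850 (6.14%) in 13R and 803 (5.84%) in C3H. It also had the highest recovery of both parents, with 83.8% for 13R and 34.99% for C3H, against medians over the 19 autosomes of 77.4% and 25.5%.

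The 13R hotspots on chromosome 6 moved up relative to 13R, and those of C3H moved down less than elsewhere. The 707 single-parent 13R hotspots on chromosome 6 had a median change of 2.46 points, whereas the medians on the other autosomes lay between -7.95 and -3.06. Of the 189 rises of 13R hotspots, 58 (30.7%, 24.2 to 37.8) were on chromosome 6, which held 6.73% of the 13R hotspots compared. Of the 40 rises of C3H hotspots, 2 were on chromosome 6, which held 7.93% of the C3H hotspots compared. For C3H the median change on chromosome 6 was -33.0 points, against -54.3 to -33.8 on the other autosomes. Hotspots near the top of the whole hybrid list were there: one in Cntn4, a contactin gene (chr6:105742959-105747366), ranked 3 in the hybrid and 500 in 13R, and one in M1ap, a gene needed for meiosis in male mice (chr6:82988873-82992958), ranked 5 and 250. The hotspot in Grm7, a glutamate receptor gene, ranked 119 in the hybrid and 389 in C3H, and those at Kdm3a and near Setmar described above lie on the same chromosome.

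The rise was not even along the chromosome. Of 245 autosomal windows of 10 Mb with at least 20 matched 13R hotspots, the 4 with the highest median change all lay on chromosome 6. They were the windows from 60 to 70 Mb (17.6 points, n = 46), 110 to 120 Mb (16.9 points, n = 52), 100 to 110 Mb (14.1 points, n = 41) and 70 to 80 Mb (11.4 points, n = 50), while the median window stood at -4.71 points. In the same 4 windows, 13RfXB6m had median changes of -6.39, -3.21, -5.21 and -7.77 points and B6fX13Rm of -11.4, -12.4, -9.81 and -20.9 points, beside medians over all matched 13R hotspots of -6.42 in 13RfXB6m and -13.1 in B6fX13Rm. The window from 110 to 120 Mb held 0.912% of the hybrid's strength, against 0.320% in 13R and 0.347% in C3H, or 2.73 times their mean. On both sides the values were nearer to the parents', with ratios of 1.25 from 50 to 60 Mb and 1.12 from 140 to 150 Mb.

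All crosses with a C3H parent had more of their strength on chromosome 6 than any other list. The 6 such crosses ranged from 6.74% (PWDfXC3Hm) to 9.16% (C3HfX13Rm), the 13 crosses without C3H from 4.76% (PWDfXB6m) to 5.89% (B6fX13Rm), and the 6 inbred strains from 5.74% (C3H) to 6.03% (CAST). The groups of crosses did not overlap, and inbred C3H was the lowest of the inbred strains. No test was made, since chromosome 6 was singled out after its values were seen and the crosses share parents. C3H/HeJ is known to carry a paracentric inversion of chromosome 6, whose part in these values was not tested.

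**Figure D5:**
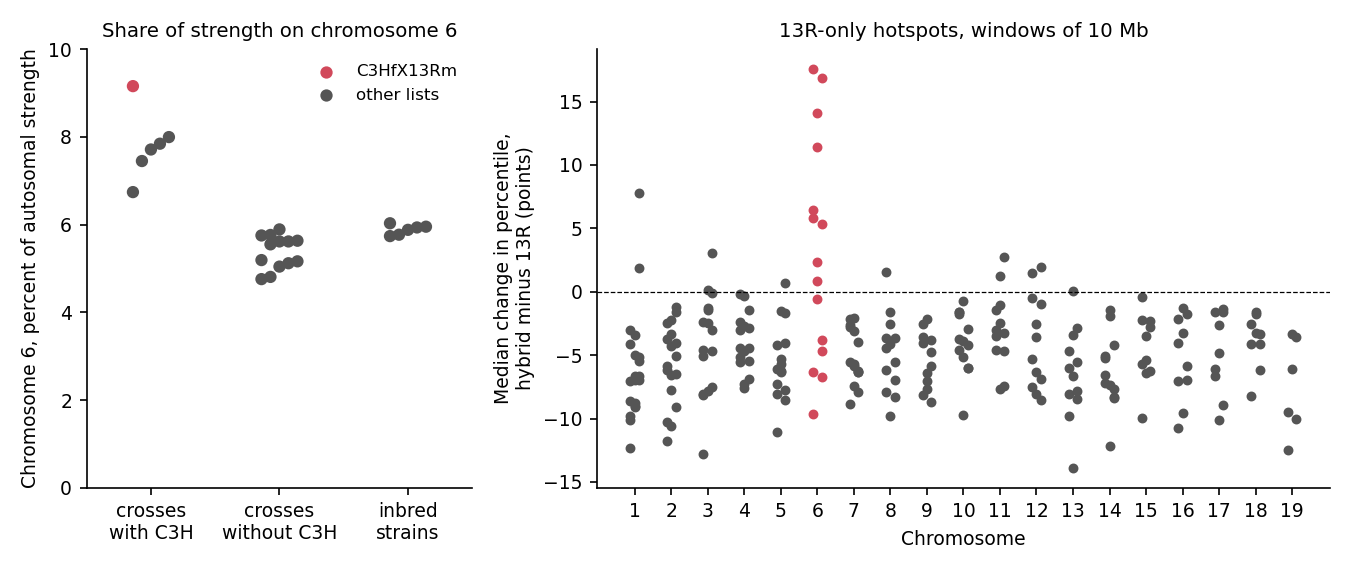
Left: share of autosomal strength on chromosome 6 (y axis, percent) in each list, by kind of list, with C3HfX13Rm in red at 9.16%. Right: median change in percentile, C3HfX13Rm minus 13R (y axis, points), of 13R hotspots in 245 windows of 10 Mb, by chromosome, with chromosome 6 in red and its highest window at 17.6 points.

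The 13R share of single-parent hotspots lay between 71.6% (chromosome 13) and 80.3% (chromosome 18) over all 19 autosomes, with a median of 75.1%. The intervals of these 2 chromosomes, 68.1 to 74.9 and 76.3 to 83.8, did not overlap, but they were picked as the extremes of 19. Their gap is therefore no test of a difference between chromosomes. By strength the share lay between 79.5% (chromosome 19) and 90.3% (chromosome 18). It was 76.3% (73.8 to 78.7) in the last 10 Mb of the autosomes and 75.1% (74.3 to 75.8) in the rest. On the X chromosome, which a male F1 receives from its mother and which was therefore C3H in sequence, 596 hotspots were 13R only and 300 C3H only, a 13R share of 66.5% (63.3 to 69.6) by number and 79.4% by strength. That interval lay below the autosomal one. The X of 13RfXB6m, from a 13R mother, had a 13R share of 68.7% (65.5 to 71.8), against 79.9% on its autosomes. That of B6fX13Rm, from a B6 mother, had 70.9% (67.2 to 74.3), against 83.9%. In MOLfX13Rm the shares were 56.5% and 60.5%, and in PWDfX13Rm 66.6% and 76.3%. The share on the X was thus the lower one in every 13R cross, with overlapping intervals only in MOLfX13Rm.

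Hotspots at neither parent lay inside genes less often than those at a single parent, with intervals that did not overlap. Centres lay inside a protein-coding gene for 52.1% (51.2 to 53.1) of 13R-only hotspots, 51.3% (49.6 to 53.0) of C3H-only hotspots and 45.3% (41.98 to 48.6) of those at neither. Within 1000 bp of a gene end lay 2.77%, 2.48% and 3.11% of the 3 classes, and 0.734%, 0.577% and 1.56% lay at a hotspot of the Prdm9 knockout.

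A list of 47 genes was looked up, most of them genes of meiotic recombination with a few at known hotspots. Of 46 that could be placed, 20 had a hybrid hotspot within 10000 bp, 22 a 13R hotspot and 15 a C3H hotspot, and 30.9% of 20661 autosomal protein-coding genes had a hybrid hotspot that near. No such share was computed for the parental lists. The 43 hybrid hotspots at these genes were 25 of 13R only, 9 of C3H only and 9 at neither, 4 of these in Spo11. Over all 14979 hybrid hotspots the shares of the 3 classes were 70.1%, 23.1% and 6.00%. The strongest of 13R origin were near Stag3, a meiotic cohesin subunit, at rank 917, and Hormad2, a protein of the chromosome axis, at rank 970. Meilb2, which brings BRCA2 to meiotic breaks, and Ccnb1ip1, a crossover factor, followed at ranks 1330 and 1390. C3H-only hotspots included one at Majin, part of the complex that tethers telomeres to the nuclear envelope, at rank 982, and a second at Hormad2 at rank 1591. Spo11, the gene of the enzyme that makes the breaks, held 4 hybrid hotspots at ranks 2359, 3564, 4173 and 10640, all at neither parent, and 6 of the 26 lists had a hotspot centre in it. The best rank in Spo11 in the other 5 was 1885 in the Prdm9 knockout, 5133 in B6fXMOLm, 11730 in PWDfXB6m, 13096 in MOLfXB6m and 16438 in B6.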

How the data were processed

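DMC1 SSDS hotspots of testis were analysed for the cross C3HfX13Rm, inbred 13R and inbred C3H, with the other 23 hotspot lists of the series for comparison. Each deposited list has 1 line per hotspot, with its position and a strength score, and the authors' normalization of the score is not given in the sources used here. CASAVA 1.8, MACS2 2.0.10 and the build mm10 are named in the submitters' processing notes. Score values below 0 number 104 in 22 of the 26 lists. The read depth is unknown, so list lengths are not numbers of breaks. Input samples, 5 in number, were left out.

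Starts were read as counted from 0 and are printed 1-based. Percentiles and shares of strength were computed within a list, over the autosomes. Percentile changes used mutual nearest matches under 400 bp with no hotspot of the other parent. Named were the 5 strongest hotspots of each origin class and of each parental list, the 3 largest falls and 3 strongest losses among the strongest 1000 of each parent, and hotspots within 10000 bp of the listed genes. The chromosome 6 windows and the stated details of Sycp3, Spo11 and Prdm9 across lists were chosen after their values were seen. A hotspot is named by the RefSeq (GRCm38.p6) gene that holds its centre, otherwise by the nearest gene end. The members and lists were chosen with earlier results of these data known. No test between genotypes was run, because each has 1 library. Dixon's criterion was applied over the 5 crosses with a 13R parent. Python 3.11.15, pandas 2.3.3, numpy 2.4.6 and scipy 1.17.1 were used, and the matching code was run on simulated lists of known origin. Their hotspots were evenly spaced, equal in width and shifted by less than the match limit. That run checked the code only and says nothing of errors near the limit in the real lists. Alternatives were other match rules, stronger or equal lists, scores above 0, and leaving out chromosome 17 or chromosome 6.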

Additional observations from a re-analysis of the deposited data

Results flagged for a closer look

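Over the 5 crosses with a 13R parent, the share of autosomal strength on each autosome, the 13R share, the share at neither parent and the 13R share on the X were searched for a cross whose gap to the nearest other cross was large for the range of all 5. Of 22 measures, 4 met Dixon's 95% limit, and chance alone flags about 1 in 20 groups. In C3HfX13Rm, chromosome 6 held 9.16% of the strength, the highest of the 5, and chromosome 13 held 4.85%, the lowest. In MOLfX13Rm, chromosome 4 held 5.87%, the lowest, and chromosome 17 held 4.02%, the highest. The values on chromosome 6 are described with the windows above.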

How the results depend on the processing

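No paired analysis was possible because each genotype has 1 library and the labels give no replicate numbers. Of 112 alternative values, 64 lay within the main value's 95% interval and 48 did not. For shares of summed strength and the ratio on chromosome 6, that interval treated the share as if it were a count of hotspots. There it is only a yardstick and measures no error. No median change changed sign, and no 13R share of single-parent hotspots fell to 50%. Shares of the class at neither parent found in another cross did cross 50%. With 13R crosses the share went from 41.7% to 55.5% for the strongest 5000 of each list. With C3H crosses it went from 26.7% to 77.9% under reciprocal overlap, where the order of the 2 shares also turned round. Leaving out chromosome 17, chromosome 6 or scores at or below 0, or making the parental lists equal in length, moved none of the values they gave beyond the main value's interval.

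Reciprocal overlap of 50% of both intervals moved most: the 13R share was 90.6% by number, 91.8% by strength and 81.5% on the X, the share at neither parent 22.4% by number and 13.4% by strength, recovery of C3H 9.18%, the median change of C3H-only hotspots -25.0 points, and the shares of the class at neither parent found in another cross 19.2% with 13R and 77.9% with C3H, so that the order of the last 2 turned round. C3H-only hotspots had a median width of 1704 bp in the hybrid, and the recovered hotspots of the C3H list one of 4029 bp, and intervals of such unequal width fail this rule by construction. With centres under 200 bp the 13R share was 76.2% by number and 84.9% by strength, the share at neither parent 10.97% and 7.41%, recovery 73.5% for 13R and 23.4% for C3H, and the shares found in another cross 38.0% with 13R and 30.7% with C3H. With centres under 1000 bp the share at neither parent was 4.95% by number and 4.20% by strength, and recovery 77.4% for 13R and 27.3% for C3H. With any overlap these were 4.68%, 3.999%, 77.7% and 28.5%.

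With the strongest 5000 of each list the 13R share was 85.5% by number and 88.9% by strength, the share at neither parent 10.5% and 8.55%, recovery of C3H 13.3%, the median changes -4.91 points for 13R and -44.9 points for C3H, and the shares found in another cross 55.5% with 13R and 15.8% with C3H. The X lists are shorter than that, so this was not run for X. With the strongest 50% the 13R share was 81.9% by number, 87.1% by strength and 71.4% on the X, the share at neither parent 9.05% and 7.14%, recovery 80.6% for 13R and 18.4% for C3H, the median changes -3.17 and -46.7 points, and the share found in another C3H cross 17.6%. The remaining alternatives, the percentile changes at equal list length and leaving out chromosome 6 were added after seeing the data. Cutting the hybrid list to the length of B6fX13Rm gave a 13R share of 79.8%. The ratio of 1.57 on chromosome 6 was 1.78 for the strongest 5000, 1.67 for the strongest 50% and 1.19 by number of hotspots.

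Shares carry counting error only, spread between animals was not measured, and read depth is unknown, which limits what can be said of weak parental hotspots missing from the hybrid.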
